A study of Rattus norvegicus with 7 samples.

Results

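Keratins of basal, stressed and simple epithelium were examined in rat meibomian gland after ultraviolet B (UVB) irradiation of the eyelid. The set was defined by gene symbol and listed 10 genes, of which 6 were found among the 17245 genes present in both deposited tables: Krt5 (NCBI gene 369017) and Krt14 (287701) of basal cells, Krt17 (287702) of stressed and follicular epithelium, and Krt7 (300242), Krt8 (25626) and Krt18 (294853) of simple epithelium. The other 4, Krt15, Krt16, Krt6b and Krt19, were not analysed here. Both groups were meibomian glands of wild-type Sprague-Dawley rats, female and 3 months old. The 3 UVB libraries came from rats whose shaved upper lids received 300 mJ/cm2 of UVB in 5 min sessions, once daily on 5 days, and the 4 control libraries are labelled as having had no treatment. The labels do not say whether control lids were shaved, how long after the last exposure the glands were taken, or whether each library came from its own animal, so p-values measure only the spread between these libraries.

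Keratins are the intermediate filament proteins of epithelial cells. A filament is built from pairs of 1 type I and 1 type II chain: KRT14 pairs with KRT5 in the basal layer of stratified epithelia, and KRT18 pairs with KRT8 in simple and glandular epithelia. The meibomian gland is a modified sebaceous gland whose acini have a layer of basal cells around lipid-filled meibocytes and whose ducts are lined by stratified epithelium. KRT17, a type I chain, is found in hair follicles and skin appendages and is induced in injured epidermis. KRT7, a type II chain, is found in glandular and ductal epithelia.

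The controls are lettered a to d and the UVB libraries a to c, and a shared letter does not pair 2 libraries. They held 20680237 to 28784941 estimated counts each. All 7 genes of a meibocyte marker list were found, with a summed level of 20647 ± 1374 TPM (SD, n = 4) in the controls, so gland was present. Marker lists of other tissues were also detected there. Their mean control sums were 4809 TPM for conjunctival and mucosal epithelium, 2622 for cornifying epidermis and 2466 for skeletal muscle. The part of each epithelium in the keratin levels was not tested. TPM is the authors' transcript level, corrected for length and scaled to a common total. CPM was computed here for comparing 1 gene across libraries. It is a count scaled to the library's total over the genes tested, times a scaling factor (TMM). Of 13 lists of cell type markers, the summed TPM of the groups did not overlap for 4: meibocytes (18831 to 22171 in controls, 15125 to 16142 after UVB), melanocytes (46.2 to 86.5, then 32.2 to 39.0), endothelium (18.2 to 23.1, then 26.4 to 31.4) and the pan-epithelial genes Epcam and Cdh1 (457 to 532, then 386 to 444). The meibocyte sum was carried by Awat2, a wax ester synthase gene (11610 TPM in controls and 7380 TPM after UVB, group means). Of the 7 meibocyte genes, Awat2 and Plin2 were called lower by edgeR, 0 were called higher (1 at an unadjusted p under 0.05, 0 by DESeq2 or limma-voom), and Pparg, Soat1 and Mgst1 had log2 fold changes above 0. The sum of the fibroblast list overlapped between groups, but 3 of its 5 genes found were called higher. Over all genes tested, 6.30% were called higher and 6.74% lower by edgeR. In such bulk tissue, fewer cells of a type and less RNA per cell cannot be told apart.

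The levels of the 6 keratins spanned more than 3 orders of magnitude on the TPM scale. In the controls the order was Krt14, Krt5, Krt17, Krt7, Krt8 and Krt18, and no 2 neighbours in this order overlapped. The mean control levels were 5279 ± 529 TPM for Krt14, 3564 ± 442 for Krt5, 1592 ± 135 for Krt17, 40.7 ± 7.07 for Krt7, 9.38 ± 3.17 for Krt8 and 1.47 ± 0.780 for Krt18 (SD, n = 4). Krt14 ranked 6 and Krt5 ranked 13 among all genes by mean control TPM, Krt17 ranked 63, and Krt7, Krt8 and Krt18 ranked 3346, 8318 and 12039. After UVB the order of means was the same, but the ranges of Krt7 and Krt8 overlapped. The simple epithelial keratins were therefore minor transcripts here, together 0.489% ± 0.0722 (SD, n = 4) of the summed TPM of the 6 genes in controls and 0.328% ± 0.127 (SD, n = 3) after UVB.

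**Figure D1:**
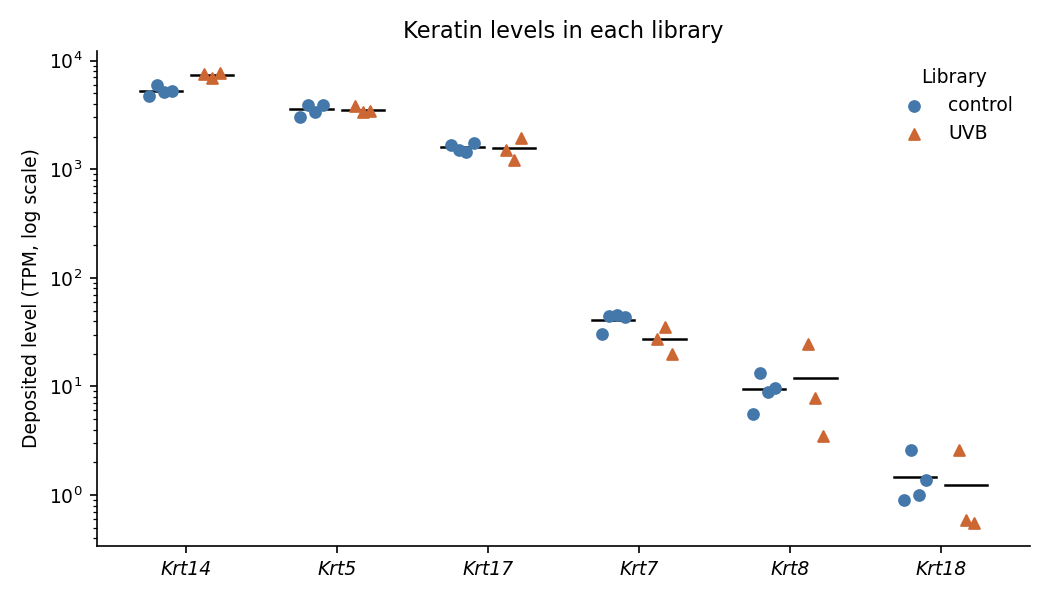
Deposited level (TPM, log axis) of each keratin in each library; circles are the 4 controls, triangles the 3 UVB libraries and black bars the group means. Of these 6 genes, only Krt14 has groups that do not overlap, at 4731 to 5995 TPM in controls and 6876 to 7657 TPM after UVB.

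The comparison of UVB with control asked which of these keratins differ after irradiation. Krt14 rose and no other member passed the threshold. In edgeR's quasi-likelihood test over all 13709 genes tested (Benjamini-Hochberg adjusted p under 0.05), 1 of the 6 keratins was called, against 13.0% of all genes tested, and it was higher, as were 6.30% of all genes. With no gene called lower by edgeR, 1 was lower at an unadjusted p under 0.05 and by DESeq2 (Krt7) and 0 by limma-voom, and 6.74% of all genes were called lower by edgeR. The median log2 fold change of the 6 was -0.032, beside -0.0058 over all genes tested. A share of 1 in 6 is near the background, so the list as a whole does not stand out.

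Krt14, the type I chain of basal epithelial cells, measured 4731, 5995, 5113 and 5279 TPM in the controls (a to d, in this order throughout) and 7482, 6876 and 7657 TPM in the UVB libraries (a to c). Every UVB library was above every control, on the TPM and the CPM scale. It was the 1 member of 6 whose groups did not overlap in CPM, as was the case for 26.6% of all genes tested, and 12.8% had every UVB library above every control. The log2 fold change was 0.47 (SE 0.099, 95% interval 0.25 to 0.69, edgeR adjusted p = 0.0173), a 1.38-fold rise. The rise had the same sign in all 17 alternatives, but 3 of them ended the call. These were leaving out control c (0.44, edgeR adjusted p = 0.0628), leaving out UVB c (0.43, edgeR adjusted p = 0.0569) and limma on unfiltered log2(TPM + 1) values (0.48, with the highest adjusted p of 0.107), while DESeq2 gave the lowest (3.83e-06). The deposited counts of Krt14 had a decimal part above 0 in all 7 libraries, the sense in which counts are called not whole here; how such reads were assigned is not given in the sources used here, and its level is uncertain to that extent. Beside this rise, 2 of 7 meibocyte markers were called lower, and 3 of 5 fibroblast markers were called higher by edgeR: Lum (1.95, adjusted p = 0.00348), Pdgfra (0.91, adjusted p = 0.00348) and Dcn (0.95, adjusted p = 0.0290), with 2 to 3 called when 1 library was left out. The fibroblast collagen genes Col1a1 (-0.48, edgeR adjusted p = 0.260) and Col3a1 (0.019, edgeR adjusted p = 0.963) were not called. Over all genes tested, 6.74% were called lower and 6.30% higher. The part of meibocytes or fibroblasts in the rise of Krt14 was not tested.

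Krt5, the type II partner of Krt14, measured 3045, 3930, 3348 and 3933 TPM in the controls and 3823, 3352 and 3413 TPM after UVB. All 3 UVB values lay inside the control range. The log2 fold change of Krt5 was -0.02 (SE 0.11, edgeR adjusted p = 0.922), and its 95% interval of -0.27 to 0.23 did not reach the value of 0.47 estimated for Krt14. Its sign changed without control b (0.030), control d (0.036), UVB b (0.0063) or UVB c (0.0026). Counts of Krt5 too were not whole in any library.

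The ratio of Krt5 to Krt14, on the TPM scale, was 0.644, 0.656, 0.655 and 0.745 in the controls and 0.511, 0.487 and 0.446 after UVB. The groups did not overlap, with means of 0.675 ± 0.0471 (SD, n = 4) and 0.481 ± 0.0330 (SD, n = 3). The difference of -0.19 ran from -0.21 to -0.17 when single libraries were left out, and no p is given because the pair was chosen with its values known. On the CPM scale, which is not corrected for length, the ratio was 0.888 ± 0.0591 (SD, n = 4) and 0.634 ± 0.0454 (SD, n = 3). As a share of the summed TPM of the 6 keratins, Krt14 made up 47.9% to 52.2% in controls and 58.1% to 59.9% after UVB, while Krt5 made up 32.1% to 35.7% and 26.2% to 29.7%. The summed level of the 6 was 10487 ± 927 TPM (SD, n = 4) without UVB and 12465 ± 858 TPM (SD, n = 3) with it, and the groups overlapped, since UVB b (11479) lay under control b (11493). Keratins were also summed by symbol, Krt followed by digits alone or a listed Kb symbol. Symbols with a letter after the digits were left out of this sum. The 6 took 49.0% ± 0.455 (SD, n = 4) of it before and 52.3% ± 1.31 (SD, n = 3) after UVB.

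**Figure D2:**
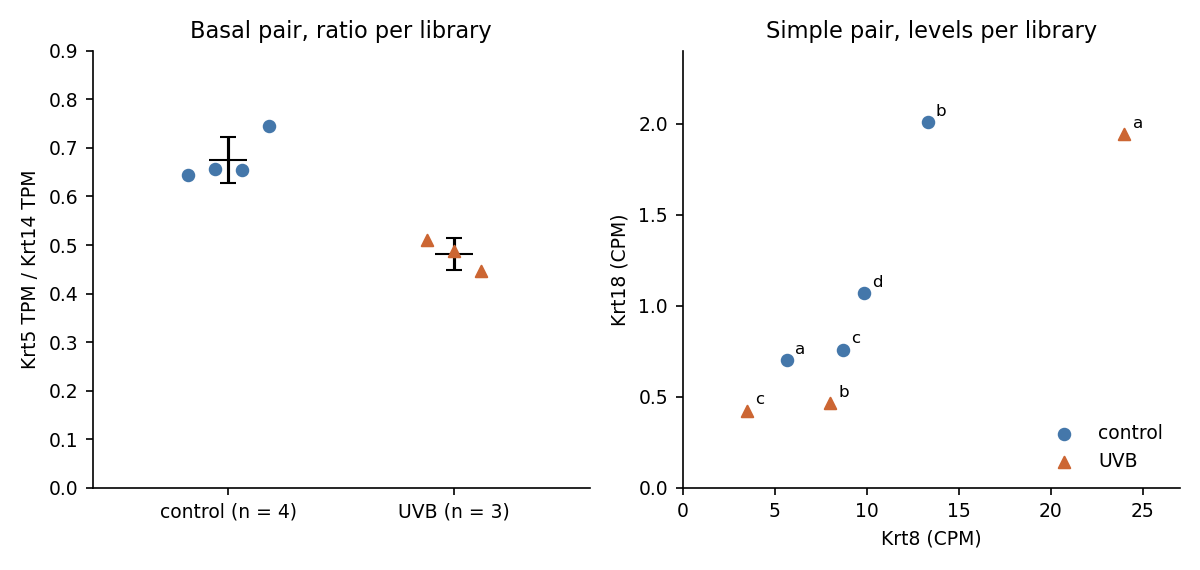
Left: ratio of Krt5 to Krt14 TPM per library, with group mean and SD (axis from 0); the controls lie between 0.644 and 0.745 and the UVB libraries between 0.446 and 0.511. Right: Krt8 against Krt18 in CPM, letters naming the libraries; UVB a is high in both genes and UVB c is the lowest in both.

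Krt17, a type I keratin of hair follicles and injured epidermis, measured 1663, 1508, 1453 and 1745 TPM in the controls and 1517, 1208 and 1946 TPM after UVB. The UVB libraries lay on both sides of the control range, with UVB b under and UVB c above all controls. The log2 fold change was -0.04 (SE 0.15, 95% interval -0.38 to 0.29, edgeR adjusted p = 0.877). The sign rested on single libraries: it was -0.23 without UVB c, 0.10 without UVB b and 0.011 without control d, with no call in any of them (adjusted p from 0.267 to 0.975 over all alternatives). Its spread on the CPM scale was 9.78% of the mean in controls and 23.1% after UVB, and its counts were not whole in any library.

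Keratins of the hair follicle's inner and companion root sheaths were measured beside Krt17. The summed TPM of the 7 found was 952, 722, 913 and 1117 in the controls and 388, 341 and 807 after UVB. Of the UVB libraries, b was lowest and c highest, the order also seen for Krt17. In the controls both were highest in control d, but the sum was lowest in control b and Krt17 in control c. By group mean, Krt17 went from 1592 to 1557 TPM and the sum of the 7 from 926 to 512 TPM. All 7 had a log2 fold change under 0, with a median of -0.92, and 2 were called lower by edgeR, as were 6.74% of all genes tested (4 of the 7 by DESeq2, by limma-voom and at an unadjusted p under 0.05): Krt75, a keratin of the companion layer (-0.73, SE 0.10, edgeR adjusted p = 0.00436), and Krt72, an inner root sheath keratin (-1.51, SE 0.37, edgeR adjusted p = 0.0362). With 0 called higher, 0 were higher at an unadjusted p under 0.05, by DESeq2 or by limma-voom. The count depended on UVB c: without it 7 of 7 were called lower, in a fit that called 1168 of all genes in either direction, and leaving out any other single library left 1. Hair shaft markers moved with them: 5 of 5 found had a log2 fold change under 0 (median -0.99), and 2 were called lower by edgeR, 5 without UVB c, 2 without control c and 0 without any other single library. The call of Krt72 was kept only without UVB c (-2.21, adjusted p = 0.0019) among these fits, and its adjusted p reached 0.0972. Whether the amount of follicle in each dissected gland set the level of Krt17 was not tested.

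**Figure D3:**
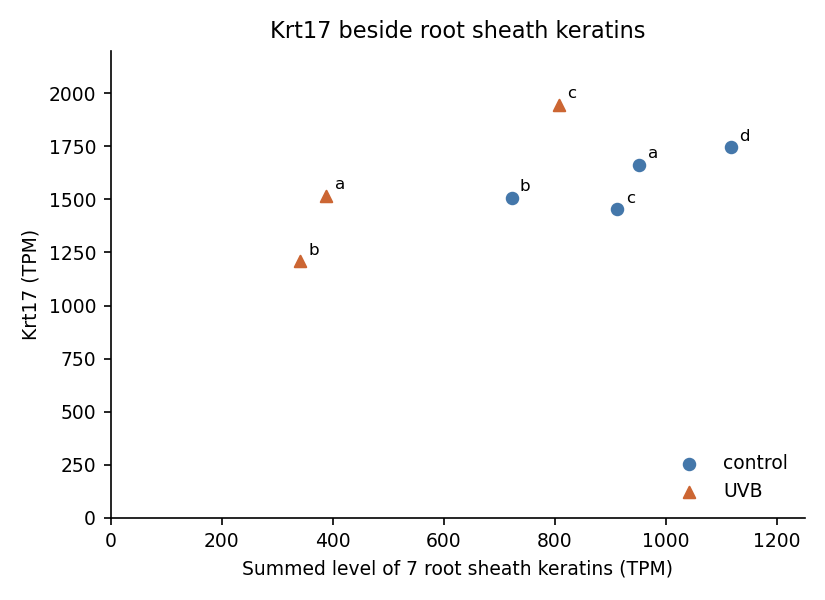
Level of Krt17 against the summed level of 7 root sheath keratins (both TPM, axes from 0), with letters naming the libraries. UVB a and b lie at 388 and 341 TPM of root sheath keratins and UVB c at 807 TPM, inside the control range of 722 to 1117.

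Krt8 and Krt18 form the filament pair of simple epithelia, and Krt18 is the type I gene that lies within the type II gene cluster, beside Krt8. Both were scarce, and within each group the libraries had the same order for both genes. The 250 bases before the annotated start of each are shown because of this shared order within groups. The promoter table held an entry for 3 of the 6 keratins found, these 2 and Krt5. They are RefSeq sequences of rat assembly GRCr8, 5′ to 3′ on the strand of the gene, Krt8 from chr7:135010340-135010589 (minus strand) and Krt18 from chr7:135035918-135036167 (plus strand), coordinates that do not belong to the build named for the counts. Capitals mark matches, on either strand, to the TATA box TATAAA, the GC box GGGCGG, the AP-1 motif TGANTCA and the AP-2 motif GCCNNNGGC.
Krt8: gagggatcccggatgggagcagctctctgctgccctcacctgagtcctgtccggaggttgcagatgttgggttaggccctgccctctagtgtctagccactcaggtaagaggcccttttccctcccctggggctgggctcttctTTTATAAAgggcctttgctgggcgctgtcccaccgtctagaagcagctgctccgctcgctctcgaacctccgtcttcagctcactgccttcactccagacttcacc
Krt18: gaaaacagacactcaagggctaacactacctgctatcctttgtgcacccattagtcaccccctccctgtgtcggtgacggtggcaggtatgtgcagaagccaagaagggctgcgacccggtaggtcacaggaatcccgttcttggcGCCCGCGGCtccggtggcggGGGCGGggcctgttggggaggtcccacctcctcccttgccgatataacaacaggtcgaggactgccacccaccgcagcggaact
The Krt8 window held overlapping TATA box letters on both strands, 99 to 106 bases before the start, as 12.9% of 33469 promoter windows of this length held at least 1. The Krt18 window held a GC box 79 to 84 bases and an AP-2 motif 96 to 104 bases before the start, letters found in 30.5% and 12.6% of the windows. Neither held the AP-1 letters, present in 6.34% of windows. These matches describe the letters only.

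Krt8 measured 5.56, 13.3, 8.91 and 9.75 TPM in the controls and 24.4, 7.90 and 3.53 TPM after UVB. The UVB libraries held both the highest and the lowest value of the series. The log2 fold change of 0.32 (SE 0.59, 95% interval -1.06 to 1.71, edgeR adjusted p = 0.760) was set by UVB a: without it the value was -0.70 (adjusted p = 0.326), and without UVB c it was 0.77 (adjusted p = 0.309). Leaving out control a (0.15), control b (0.54) or UVB b (0.54) also moved it by over 1.5 times, without a call.

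Krt18 measured 0.90, 2.60, 1.01 and 1.37 TPM in the controls and 2.57, 0.59 and 0.55 TPM after UVB, from 11 to 43 counts in a library. UVB a again stood with the highest control and the other UVB libraries were below every control. The log2 fold change was -0.29 (SE 0.60, 95% interval -1.66 to 1.08, edgeR adjusted p = 0.788). It was -1.33 without UVB a (adjusted p = 0.142), 0.044 without UVB b, 0.068 without UVB c, 0.12 without control b and -0.45 without control a or control c, again without a call. At this depth and spread a change of 2-fold in either direction was inside the interval of both genes.

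On the CPM scale the 4 controls had the same order for both genes, control a lowest, then c, d and b, and so did the 3 UVB libraries, UVB c lowest, then b and a. For Krt18 the order of UVB b and c rested on 12 against 11 counts. Across the groups the orders differed. Krt8 was higher in UVB b (8.01 CPM) than in control a (5.65 CPM), while Krt18 was lower in UVB b (0.465 CPM) than in control a (0.700 CPM). The ratio of Krt8 to Krt18 was 6.81 ± 1.57 (SD, n = 4) without UVB and 9.76 ± 3.49 (SD, n = 3) with it on the TPM scale, with overlapping groups. Counts of both genes were whole in every library. Merkel cells, the touch receptors of epidermis, also make this pair, so their markers were read beside it. Of 5 marker genes found, the summed level was 1.19 to 1.73 TPM in controls and 1.73 to 2.95 TPM after UVB. Atoh1, which defines these cells, was at 0 in controls b and d and in UVB b and c and at most 0.080 TPM in the others. Krt20, a keratin of these cells, measured 0.050 to 0.24 TPM in controls and 0.35, 0.46 and 0.42 TPM after UVB. It was the 1 marker of the list whose groups did not overlap, and its level was low in every library. The groups did not overlap for 26.6% of all genes tested, a set that does not include Krt20. The other markers, in UVB a to c, were Isl1 at 1.83, 0.91 and 0.25 TPM, Sox2 at 0.49, 0.39 and 0.82 TPM and Piezo2 at 0.20, 0.25 and 0.24 TPM, and only Isl1 had the order of Krt8 in these libraries. In controls a to d Isl1 measured 0.49, 0.30, 0.50 and 0.40 TPM, lowest in control b, where Krt8 was highest. Atoh1, Krt20 and Isl1 did not pass the low-count filter, so 2 of the 5 markers were tested by edgeR, and neither was called. The part of such cells in the levels of Krt8 and Krt18 was not tested.

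Krt7, a type II keratin of glands and ducts, measured 30.2, 44.1, 45.2 and 43.4 TPM in the controls and 27.4, 35.0 and 19.9 TPM after UVB. All UVB libraries were below controls b to d, but UVB b was above control a. The log2 fold change was -0.57 (SE 0.21, unadjusted 95% interval -1.05 to -0.091), which did not pass the threshold (edgeR adjusted p = 0.114). The sign was the same in all 17 alternatives. It passed by DESeq2 (-0.56, adjusted p = 0.0314), where 17.5% of 13806 genes were called, and without UVB b (-0.80, adjusted p = 0.0476), and it was weakest without UVB c (-0.38, adjusted p = 0.215). Krt7 followed Krt8 only in part. Both were lowest of all libraries in UVB c and, among controls, lowest in control a. However, UVB a was the highest library for Krt8 and UVB b the highest UVB library for Krt7. Counts of Krt7 were whole in every library. Of the pan-epithelial genes, Epcam was called lower (-0.33, edgeR adjusted p = 0.0167) and Cdh1 was not (-0.24, edgeR adjusted p = 0.119), and their part in the value of Krt7 was not tested.

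**Figure D4:**
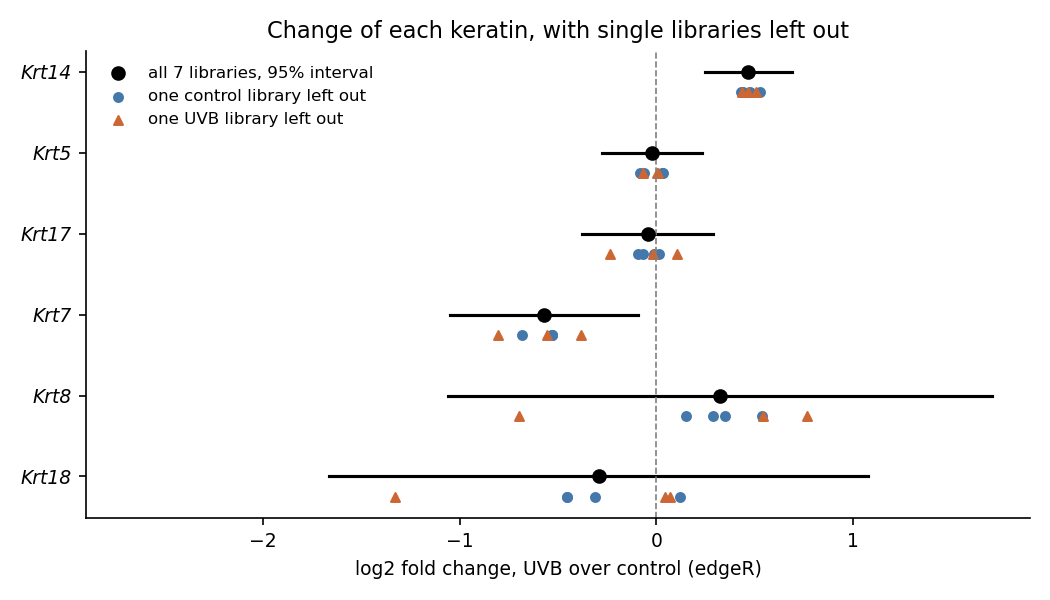
Log2 fold change (UVB over control, edgeR) of each keratin with its 95% interval in black; coloured points below are the values with 1 control library (circles) or 1 UVB library (triangles) left out. The interval of Krt14 runs from 0.25 to 0.69, and the points of Krt5, Krt17, Krt8 and Krt18 lie on both sides of 0.

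The genes whose profile over the 7 libraries was most like that of Krt14 were Grn, Plod3 and Ppic. Likeness was the root mean square difference of log2 CPM after centring each gene on its control mean, over 11364 other genes with a mean count of at least 50. It was 0.0432 for Grn, which encodes the growth factor precursor progranulin, 0.0566 for Plod3, which encodes a collagen lysyl hydroxylase, and 0.0677 for Ppic, which encodes a peptidyl-prolyl isomerase. Their log2 fold changes were 0.46, 0.47 and 0.48; a value near that of Krt14 follows from how they were chosen and is given as a description only. Krt5 ranked 4614 by this measure and Krt17 ranked 7199, so neither of the abundant keratins was near Krt14.

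Suprabasal and mucosal keratins replace the basal pair as cells leave the basal layer. Of 14 found, 4 were called lower by edgeR, against 6.74% of all genes tested, and 0 higher, against 6.30%. Their median log2 fold change was 0.019. At an unadjusted p under 0.05, 2 were higher, as by DESeq2, and 0 by limma-voom. DESeq2 called 17.5% of 13806 genes in either direction. The lower genes named by rule were Krt77, a keratin of sweat ducts and interfollicular epidermis (-5.90, SE 0.63, edgeR adjusted p = 0.00348), Krt80, a keratin of late differentiation (-0.62, SE 0.10, edgeR adjusted p = 0.00706), and Krt2, a keratin of the upper spinous layer (-1.21, SE 0.28, edgeR adjusted p = 0.0231). The fourth, Krt24 (-1.85, edgeR adjusted p = 0.0312), is named because it completes the count; it lost its call without UVB a (0.0882), UVB b (0.0965), control b (0.0679), control c (0.0654) or control d (0.0758). Krt2 lost its call without UVB b (0.0747), UVB c (0.0621), control c (0.066) or control d (0.0638), and 2 genes of the list were called lower without UVB b, control c or control d. Leaving out UVB b or control d also gave 1 gene called higher. By group mean, Krt77 measured 24.4 TPM in controls and 0.42 TPM after UVB, Krt2 1.70 and 0.747, and Krt24 3.2 and 0.887. Krt80 measured 223 and 145 TPM. Among the keratins of the list not called, Krt13 measured 3597 TPM in controls and 4188 TPM after UVB (edgeR adjusted p = 0.270). Krt1 measured 1471 and 1943 TPM (edgeR adjusted p = 0.110), and the groups overlapped for both. Krt10 measured 877 and 926 TPM, Krt23 197 and 194, and Krt76 10.4 and 8.85. Of the 14, 7 had a log2 fold change above 0 and 7 under 0.

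Desmosomes and hemidesmosomes anchor keratin filaments to the cell membrane. For comparison with the counts of both lists, 6.30% of all genes tested were called higher and 6.74% lower by edgeR. A count of 1 in 13 is near these shares. Among 13 desmosome genes found, 1 was called higher and 1 lower by edgeR (2 and 1 by DESeq2, 1 and 1 by limma-voom, 4 and 1 at an unadjusted p under 0.05), with a median log2 fold change of 0.053. Dsg3, the desmosomal cadherin of the basal and lower spinous layers, rose from 96.4 ± 5.31 TPM (SD, n = 4) to 136 ± 8.99 TPM (SD, n = 3). The log2 value was 0.50 with an SE of 0.074 (edgeR adjusted p = 0.00584), close in size to that of Krt14. Evpl, which encodes the cornified envelope protein envoplakin, was lower (-0.40, SE 0.10, edgeR adjusted p = 0.0320), a call kept only without control a (0.00863) or UVB a (0.0433) among the fits that left out 1 library (up to 0.104). Without UVB b, 2 desmosome genes were called higher. Among 9 hemidesmosome and basement membrane genes found, 3 were called higher by edgeR and 0 lower (1 at an unadjusted p under 0.05, by DESeq2 and without control a, 0 by limma-voom), with a median of -0.014. They included Itgb4 (0.41, SE 0.066, edgeR adjusted p = 0.00678) and Itga6 (0.25, SE 0.070, edgeR adjusted p = 0.0453), the chains of the hemidesmosomal integrin. Itga6 kept its call only without UVB b (0.0220) among the fits that left out 1 library, where it otherwise ran up to 0.135, and counts of Itgb4 were not whole in any library.

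Of 20 regulators of keratin genes found, 1 was called higher and 1 lower by edgeR (3 and 2 by DESeq2, 1 and 1 by limma-voom, 5 and 5 at an unadjusted p under 0.05), with a median log2 fold change of 0.010. For comparison with this list and the next, 6.30% of all genes tested were called higher and 6.74% lower by edgeR. A count of 1 in 20 is near these shares. Fosl1, an AP-1 subunit, rose from 4.16 ± 0.486 TPM (SD, n = 4) to 7.49 ± 1.87 TPM (SD, n = 3). Its log2 value was 0.84 with an SE of 0.17 (edgeR adjusted p = 0.0159), and the call was lost without UVB c (0.75, adjusted p = 0.0517). Elf3, an epithelial ETS factor, fell by 0.52 on the log2 scale (SE 0.12, edgeR adjusted p = 0.0247), a call kept only without control a (0.0130) or UVB a (0.0131) among the fits that left out 1 library (up to 0.0842). The count of regulators called higher was 0 without UVB c and 3 without UVB b, and 2 without UVB a or control a, and that called lower was 2 without UVB a. Tp63, which encodes the basal cell factor p63, had a log2 value of -0.089 (SE 0.076, edgeR adjusted p = 0.473) and is named after its value was seen. Of 8 keratin-binding and filament-organising genes found, 1 was called higher by edgeR and 0 lower (1 at an unadjusted p under 0.05 and without control a, 0 by DESeq2 or limma-voom), with a median of -0.022. This was Sfn, which encodes the 14-3-3 protein stratifin that binds KRT17 and KRT18, at 143, 159, 140 and 172 TPM in the controls and 280, 219 and 268 TPM after UVB (log2 fold change 0.73, SE 0.10, edgeR adjusted p = 0.00458). The groups did not overlap, and counts of Fosl1 and Sfn were not whole in any library.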

How the data were processed

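RNA sequencing of 7 meibomian gland libraries was used. The authors deposited expected counts (estimated counts per gene, not normalised) and TPM values, per the file headers. FastQC, Trimmomatic, DRAGEN, Picard and build rn7 are listed, without roles, per the submitters' processing notes; annotation and strand handling are not given in the sources used here. Unquoted commas in gene names displace cells, so cells were assigned by counting back from the end of the line; 5 rows lacking a value were left out. Of the count values, 12.5% were not whole (any decimal part above 0, with no tolerance), and counts were rounded. Columns name the group but not the replicate.

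The test was edgeR 4.0.16 (R 4.3.3; TMM, filterByExpr, robust quasi-likelihood, UVB against control, all 7 libraries), which kept 13709 genes, with Benjamini-Hochberg adjustment over all of them and a threshold of 0.05. Standard errors are the log2 fold change over the root of F. Fits were tested on simulated data with the same dispersion for every gene, which did not cover single libraries standing apart. CPM uses TMM factors. There were 17 alternatives: 3 other scalings, DESeq2 1.42.0, limma 3.58.1 (voom), 2 other filters, 3 fits of limma with trend on log2(TPM + 1) or log2(TPM + 0.1), and 7 fits that left out 1 library each. Members, 6 gene lists and 13 marker lists were chosen with earlier results of these data known. By rule, the text names all members, the 3 genes most like Krt14 (the rule also covered Krt16), and in each list up to 3 called genes per direction with the smallest p. The rule also gave 1 gene that is not reported here. Overlap of groups was read on CPM for counts of genes. No member overlaps another gene in RefSeq's GRCr8 annotation.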

Additional observations from a re-analysis of the deposited data

Results flagged for a closer look

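Among 42 quantities, 5 had a control library standing well apart from the rest of its group, and chance alone would give about 2.10. Krt7 measured 28.3 CPM in control a and 40.5 to 41.0 CPM in the others, a gap of 0.963 of the range; without control a the log2 fold change was -0.68 (edgeR adjusted p = 0.0565). The ratio of Krt5 to Krt14 was 0.745 in control d and 0.644 to 0.656 in the others, a gap of 0.881; without control d the difference was -0.17. Krt77 measured 85.0 CPM in control b and 27.2 to 32.0 CPM in the others, a gap of 0.917. Itgb4 measured 182 CPM in control a and 207 to 212 CPM in the others, a gap of 0.842. Itga6 measured 211 CPM in control d and 195 to 197 CPM in the others, a gap of 0.838. The UVB group, with 3 libraries, is too small for this comparison.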

How the results depend on the processing

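No paired analysis was possible because no column shows which replicate it holds. Over the 10 alternatives that kept all libraries, the sign of Krt14, Krt5, Krt17, Krt7 and Krt18 was unchanged where fitted (Krt18 was not tested at a mean count of at least 50), and that of Krt8 changed to -0.11 under limma-voom and -0.021 under log2(TPM + 0.1). With limma on unfiltered log2(TPM + 1) values, 0 members were called higher, 5 genes of the 6 related lists were called lower (8 by edgeR) and 1137 of all genes were called (1787 by edgeR). With DESeq2, 1 member was called lower, 11 genes of the related lists were called higher (6 by edgeR) and 2413 of all genes were called. The ratio of Krt5 to Krt14 differed by -0.25 on the CPM scale, against -0.19, since CPM is not divided by length. The causes of the other changes were not tested.

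When 1 library was left out, the members called higher ran from 0 (without UVB c or control c) to 1 and lower from 0 to 1 (without UVB b), all genes called from 851 to 1898 (1047 without UVB b, 1168 without UVB c, 1097 without control b, 851 without control c and 943 without control d), genes of the related lists called higher from 4 to 10 (10 without UVB b) and lower from 3 to 11 (3 without UVB b, control c or control d, 4 without control b), and the summed TPM difference of the members from 1641 to 2471. The log2 fold changes ran from -0.083 to 0.036 for Krt5, -0.23 to 0.10 for Krt17, -0.70 to 0.77 for Krt8 and -1.33 to 0.12 for Krt18. Krt18 had the fewest counts of the members, 11 to 43 in a library.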
